A study of Homo sapiens with 24 samples.

Results

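The IgG background of METTL7A-expressing HCC827 cells was set against that of wild-type HCC827 cells, in 2 cell states, from 4 deposited peak lists of a chromatin immunoprecipitation sequencing (ChIP-seq) series. All lines of a list were members: 70 METTL7A and 1444 wild-type IgG peaks of parental cells, beside 96 METTL7A and 2529 wild-type IgG peaks of resistant cells. These 4139 peaks are part of 13347 peaks in the 8 lists of the series. HCC827 is an established human lung adenocarcinoma line that carries mutated EGFR. The wild-type parental group is listed as untreated HCC827. The METTL7A parental group is untreated HCC827 that overexpresses METTL7A-MYC-tag-FLAG, a fusion of METTL7A, a methyltransferase-like protein, to MYC and FLAG tags. The 2 resistant groups are the line HCC827-OR with the same 2 genotypes, grown in 1 µM osimertinib, an inhibitor of mutant EGFR. Each of these 4 IgG groups had 2 samples, labelled as biological replicates, out of 24 samples in 12 groups. The promoter and vector of the METTL7A construct, and whether the expressing cells are 1 clone or a pool, were not stated in the labels, and no list measures the METTL7A level.

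An IgG isotype control antibody has no chosen target in chromatin, so its precipitate shows which DNA comes down without a specific antibody. Such background is known to follow open chromatin at gene starts, DNA present in many copies and sequences that align poorly. EGFR, the receptor tyrosine kinase gene on chromosome 7, is known to be amplified in this line. A control list serves to judge which positions of a specific antibody stand out in the same cells.

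Nearly all wild-type IgG peaks lacked a METTL7A IgG partner in the same state, as 5 of 1444 parental (0.346%) and 15 of 2529 resistant ones (0.593%) had one. The METTL7A lists hold only 70 and 96 peaks, so list length alone keeps these shares low. Among the high peaks without a partner were some at gene starts. The starts of SEC61G, a subunit of the protein translocation channel, of EGFR, and of TBK1, an innate immune kinase, are shown here because a peak lay there in both wild-type IgG lists and in neither METTL7A IgG list. The same held for the start of LANCL2, which is named only. EGFR and TBK1 were chosen after their values were seen, and these starts stand for no wider set of genes. Each sequence is the 250 bases before the start from RefSeq, build GRCh38.p14, read 5′ to 3′ on the gene's strand. They lie at chr7:54759212-54759461 (SEC61G, minus strand), chr7:55018767-55019016 (EGFR, plus strand, the first of 2 starts in the table) and chr12:64451870-64452119 (TBK1, plus strand). Capitals mark GGGCGG or its reverse complement CCGCCC, the GC box.
SEC61G: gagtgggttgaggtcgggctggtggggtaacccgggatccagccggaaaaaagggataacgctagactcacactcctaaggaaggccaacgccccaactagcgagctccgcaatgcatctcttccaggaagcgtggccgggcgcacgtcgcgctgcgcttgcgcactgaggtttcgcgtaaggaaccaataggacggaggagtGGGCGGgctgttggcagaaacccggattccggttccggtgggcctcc
EGFR: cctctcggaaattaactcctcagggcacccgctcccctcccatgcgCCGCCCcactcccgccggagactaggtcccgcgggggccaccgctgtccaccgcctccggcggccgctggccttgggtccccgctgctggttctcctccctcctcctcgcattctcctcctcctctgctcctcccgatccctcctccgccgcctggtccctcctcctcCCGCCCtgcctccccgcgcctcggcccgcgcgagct
TBK1: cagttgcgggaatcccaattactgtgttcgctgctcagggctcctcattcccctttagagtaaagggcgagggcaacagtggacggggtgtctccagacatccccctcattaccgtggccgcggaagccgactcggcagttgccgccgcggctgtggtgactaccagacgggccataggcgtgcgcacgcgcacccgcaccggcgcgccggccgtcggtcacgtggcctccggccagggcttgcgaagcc
The GC content was 62.4% for SEC61G, 73.6% for EGFR and 66.8% for TBK1, against a median of 58% over 35114 RefSeq promoters of the same length. The CG dinucleotide occurred 22, 25 and 27 times, against a median of 11. A GC box was present in SEC61G and EGFR, as in 42.6% of all promoters, and these letters were not in the TBK1 window. The peak coordinates below are GRCh37, the build named in the submitters' processing notes, and were not converted.

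Each list has 20 columns and matches the peaks of 2 replicates by the irreproducible discovery rate (IDR) method. The height of a peak is the −log10 p-value of the peak caller, deposited once for each replicate in columns 15 and 19, here called the first and the second column. The lists do not tell which of the replicates stands in which column. The lower height means the lower of the 2 values. Heights are the authors' values, and no shared scale joins those of different lists. Library depth is unknown here, since the lists hold no read numbers. One list stands for a group, so a count or share has no replicate error, and the p-values below compare lists of peaks and not cultures.

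HBB, the beta-globin gene of red blood cells, held a peak in both METTL7A IgG lists. The lists overlapped each other at 2 positions, HBB and 1 that is not described here, which makes 2 of 70 parental peaks (2.86%, exact 95% interval 0.348 to 9.94) and 2 of 96 resistant peaks (2.08%, 0.253 to 7.32). Exact intervals here and below are Clopper-Pearson and cover counting error only.

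At HBB, the parental METTL7A peak was 1198 bp wide, over the 3′ part of the gene and the sequence beyond it, with heights of 4.63 and 48.8. The interval of the first column was 11:5246728-5247306, 579 bp inside the 1198 bp of the second, and the 2 summits were 527 bp apart. The parental wild-type list had heights of 16.2 and 13.1 there, at 11:5246191-5247254, with intervals of 1063 and 899 bp. The resistant METTL7A list had 22.6 and 13.04, at 11:5246139-5247347, with intervals of 1189 and 1105 bp. By lower height HBB was number 5 in both parental IgG lists and number 2 in the resistant METTL7A list. In the parental METTL7A list it tied with 12:79854005-79854466 and 4:6195183-6195627. The resistant wild-type IgG list had no peak there. Among MYC-tag lists only that of resistant METTL7A-expressing cells did, at 14.5 and 5.98 and a global IDR of 0.659. The 3 IgG intervals share 1064 bp, the whole of the parental wild-type peak.

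HBB thus had a peak in 3 of the 4 IgG lists, METTL7A in both states and wild-type in the parental state. In the parental METTL7A list the second column was 10.5-fold higher than the first. The ratio was 0.806 in the parental wild-type list and 0.578 in the resistant METTL7A list. Of the 2 parental METTL7A values 1 was above and 1 below the wild-type value of its column.

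**Figure D1:**
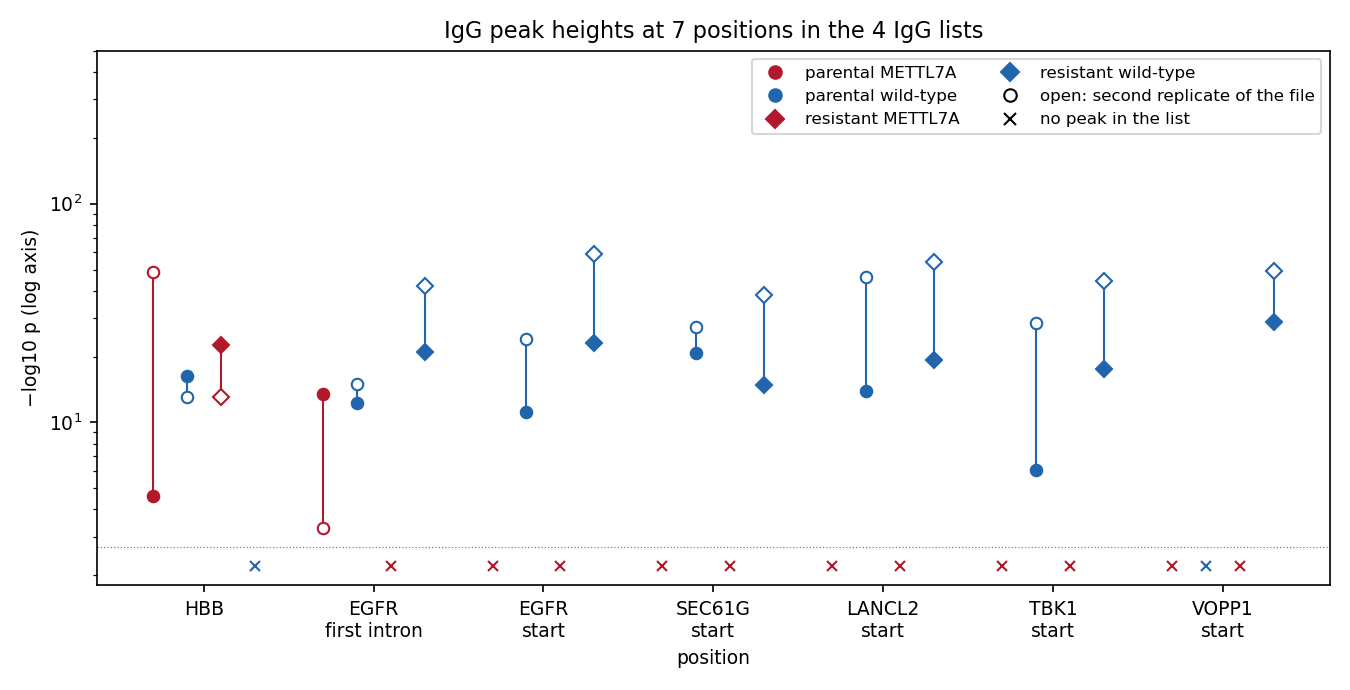
Heights (−log10 p, log axis) at 7 positions in the 4 IgG lists, with circles for parental and diamonds for resistant cells, red for METTL7A, blue for wild-type, filled symbols for the first and open symbols for the second column, and a cross where the list has no peak. HBB has a peak in 3 of the 4 lists. The starts of EGFR, SEC61G, LANCL2 and TBK1 have peaks in the 2 wild-type lists. The start of VOPP1 has a peak in the resistant wild-type list only.

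At 4 gene starts, picked for this pattern, peaks were in wild-type lists alone. Wild-type heights at the SEC61G start were 20.8 and 27.3 in the parental list (7:54826493-54827120), beside 14.9 and 38.2 in the resistant list (7:54826505-54827125). At the start of LANCL2, a gene of a lanthionine synthetase-like protein next to EGFR, they were 13.9 and 46.2 (7:55433181-55434370) and 19.3 and 53.9 (7:55433179-55434391). At the EGFR start they were 11.2 and 24.2 (7:55086146-55088168) and 23.2 and 58.58 (7:55085809-55088472). At the TBK1 start they were 6.09 and 28.4 (12:64845713-64846326) and 17.5 and 44.4 (12:64845573-64846350). These 4 starts also had a peak in both wild-type MYC-tag lists, and none in the 4 METTL7A lists of either antibody. Absence from METTL7A lists was common among wild-type IgG peaks. The METTL7A MYC-tag list of the same state held 119 of 1444 parental (8.24%) and 192 of 2529 resistant ones (7.59%). Within 54 to 56 Mb of chromosome 7 it held more, 45 of 60 parental and 74 of 106 resistant ones. LANCL2 and SEC61G were among the 5 highest parental wild-type IgG peaks. Of the other 3, HBB had a METTL7A IgG partner, and 7:54731577-54733276 (18.5 and 43.7) and 7:55321989-55323239 (16.2 and 62.6) had none. The resistant wild-type list was led by a position of chromosome 21 at 21:9825490-9827150, with heights of 607 and 294, which holds the microRNA genes MIR3648 and MIR3687 and has no peak in any of the other 7 lists. It was followed by 6:11537472-11538778 near TMEM170B (42.1 and 58.77) and 7:54731635-54733212 (29.7 and 69.1). Next came the start of VOPP1 at 7:55639337-55640374 (28.8 and 49.4) and X:25020479-25021018 (23.7 and 25.3). The VOPP1 and X positions had no peak in any other list, wild-type lists included. None of these positions had a METTL7A IgG partner.

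Most named peaks of the parental METTL7A list were low. The second by lower height lay in CCNF, the cyclin F gene (16:2500887-2501505, 6.13 and 5.04), and the next in TIMP2, a metalloproteinase inhibitor gene (17:76879889-76880250, 5.39 and 4.996). The TIMP2 position recurred in the METTL7A MYC-tag list of parental cells, and the CCNF position recurred in no other list. The fourth, 2:241102210-241102572 (6.13 and 4.76), recurred in no list either. Of the next 5, after HBB, 12:79854005-79854466 (4.63 and 5.99), 4:6195183-6195627 (4.63 and 4.76) and 1:205408597-205408938 (4.58 and 4.24) recurred nowhere, 7:54182814-54183619 (5.65 and 4.38) recurred in 3 MYC-tag lists and 1:201223110-201224581 (4.34 and 4.76) in 1. From rank 2 to 10 the lower height thus ran from 5.04 to 4.24. Peaks of equal lower height were ordered by chromosome and start, and further peaks tied with rank 10 at 4.24. The whole list had a median lower height of 3.49 and a minimum of 3.01.

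The resistant METTL7A list went down more slowly. Its peak after HBB lay in MT-RNR2, the large ribosomal RNA gene of mitochondrial DNA (MT:2768-3166, 11.6 and 16.2), and neither wild-type IgG list had a mitochondrial peak. The fourth lay in the first intron of EGFR (7:55141509-55142061, 8.97 and 10.2), with a peak in the wild-type IgG list of the same state and in 4 MYC-tag lists. The fifth, 12:65309113-65309779 (7.99 and 8.15), recurred only in resistant wild-type MYC-tag. Of the next 5, 4 lay in the EGFR region, which were 7:55193149-55194682 (8.10 and 7.08) and 7:55253731-55254156 (6.94 and 9.39) inside EGFR, and 7:54928224-54928635 (6.94 and 8.97) and 7:54969609-54969996 (10.3 and 6.65) upstream of it. The tenth lay in ADTRP, whose product hydrolyses fatty acid esters (6:11771114-11771751, 9.82 and 6.61). The median lower height of this list was 3.77.

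METTL7A IgG lists were shorter than wild-type lists by a factor of 20.6 in parental and 26.3 in resistant cells when all matched peaks were counted. Matched peaks covered 37.5 kb and 45.2 kb in METTL7A lists, and 951 kb and 1748 kb in wild-type lists. Heights of at least 5 in both columns were reached by 2 METTL7A and 252 wild-type parental peaks and by 18 and 989 resistant ones. Heights of at least 9 were reached by 1 against 19 parental and by 3 against 97 resistant peaks. The order depended on the rule in parental cells. At a global IDR of 0.05 or less, called reproducible here, the parental METTL7A list held 53 peaks (75.7% of its 70) and the wild-type list 31 (2.15% of its 1444), and at 0.01 or less 53 and 20. In resistant cells 13 METTL7A (13.5%) and 20 wild-type peaks (0.791%) were reproducible, and 3 and 7 at 0.01 or less.

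**Figure D2:**
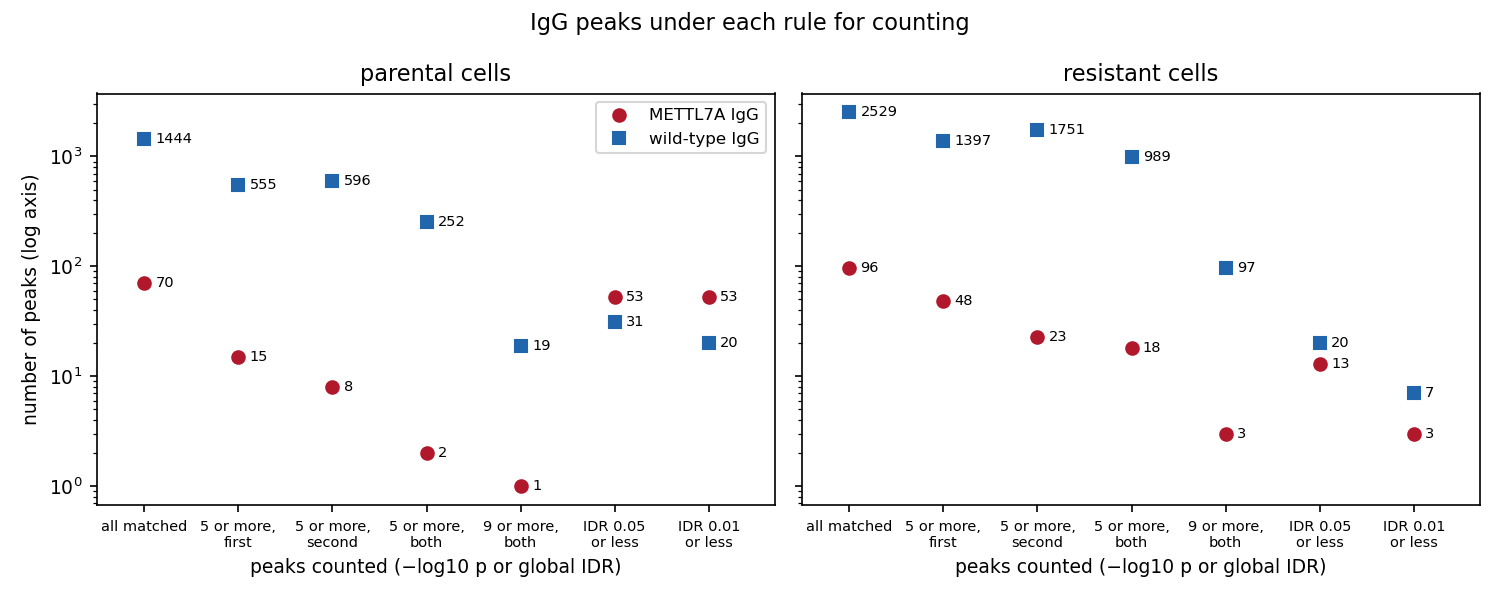
Number of IgG peaks (log axis) under 7 rules for counting, METTL7A as red circles and wild-type as blue squares, in parental and resistant cells. METTL7A lists are shorter under the 5 rules that use all peaks or a height, and the order turns in parental cells under both IDR rules.

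The reproducible peaks of the parental METTL7A list were not its high peaks alone. Their median lower height was 3.89 and their minimum 3.18, against a median of 10.5 and a minimum of 7.15 for the reproducible wild-type peaks. The 17 peaks that were not reproducible all had the same global IDR of 0.244 and a median lower height of 3.22. In resistant cells the medians of reproducible peaks were 6.94 for METTL7A and 18.2 for wild-type, with minima of 4.98 and 12.9. An IDR value in one list thus went with another height in the next. Counts and region shares of reproducible peaks therefore do not set the lists against each other on a shared scale.

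The columns 15 and 19 agreed little in the parental METTL7A list. Across its 70 peaks Spearman's rho was -0.03, and Pearson's r of log10 heights was 0.52. Across the 1444 parental wild-type peaks rho was 0.14 and r 0.31. In resistant cells rho was 0.43 and r 0.62 over 96 METTL7A peaks, and 0.12 and 0.23 over 2529 wild-type peaks. Peaks of a list share both libraries and are not replicates, so these values describe the lists and have no p. Among as many of the highest wild-type peaks as the METTL7A lists hold, rho was 0.59 (parental, 70 peaks) and 0.44 (resistant, 96 peaks). Within the 53 reproducible peaks of the parental METTL7A list rho was -0.29, and in the resistant METTL7A list rho was 0.25 without chromosome 7. The highest and the reproducible peaks were picked on values of both replicates. That choice shapes their rho, so it cannot be set against the rho of whole lists.

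Many peaks of a list had the same height. The second column of the parental METTL7A list read 4.24 in 30 of 70 peaks (42.9%), and its first column 3.22 in 16 (22.9%). In the resistant METTL7A list the commonest heights were 3.77 in the first column (28 of 96 peaks, 29.2%) and 4.73 in the second (21 peaks, 21.9%). The commonest height of the parental wild-type list covered 22.6% of the first and 18.8% of the second column, and that of the resistant wild-type list 4.67% and 7.63%. Distinct heights, as a share of the peaks, made up 38.6% to 47.9% of a column in METTL7A lists and 12.5% to 25.8% in the longer wild-type lists. The second column was the higher one in 45.7% (33.7 to 58.06) of parental and 35.4% (25.9 to 45.8) of resistant METTL7A peaks. In the wild-type lists it was the higher one in 59.4% (56.8 to 62.0) and 62.1% (60.2 to 64.0). The peak with the lowest ratio of second to first column in the parental METTL7A list lay in the first intron of EGFR (7:55145670-55147140, 13.5 and 3.31, ratio 0.245), and the peak with the highest was HBB. In the resistant METTL7A list the lowest ratio also fell in that intron (7:55198304-55198793, 12.7 and 5.17, ratio 0.408), and the highest at 5:170913851-170914312 (3.47 and 7.54, ratio 2.17).

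**Figure D3:**
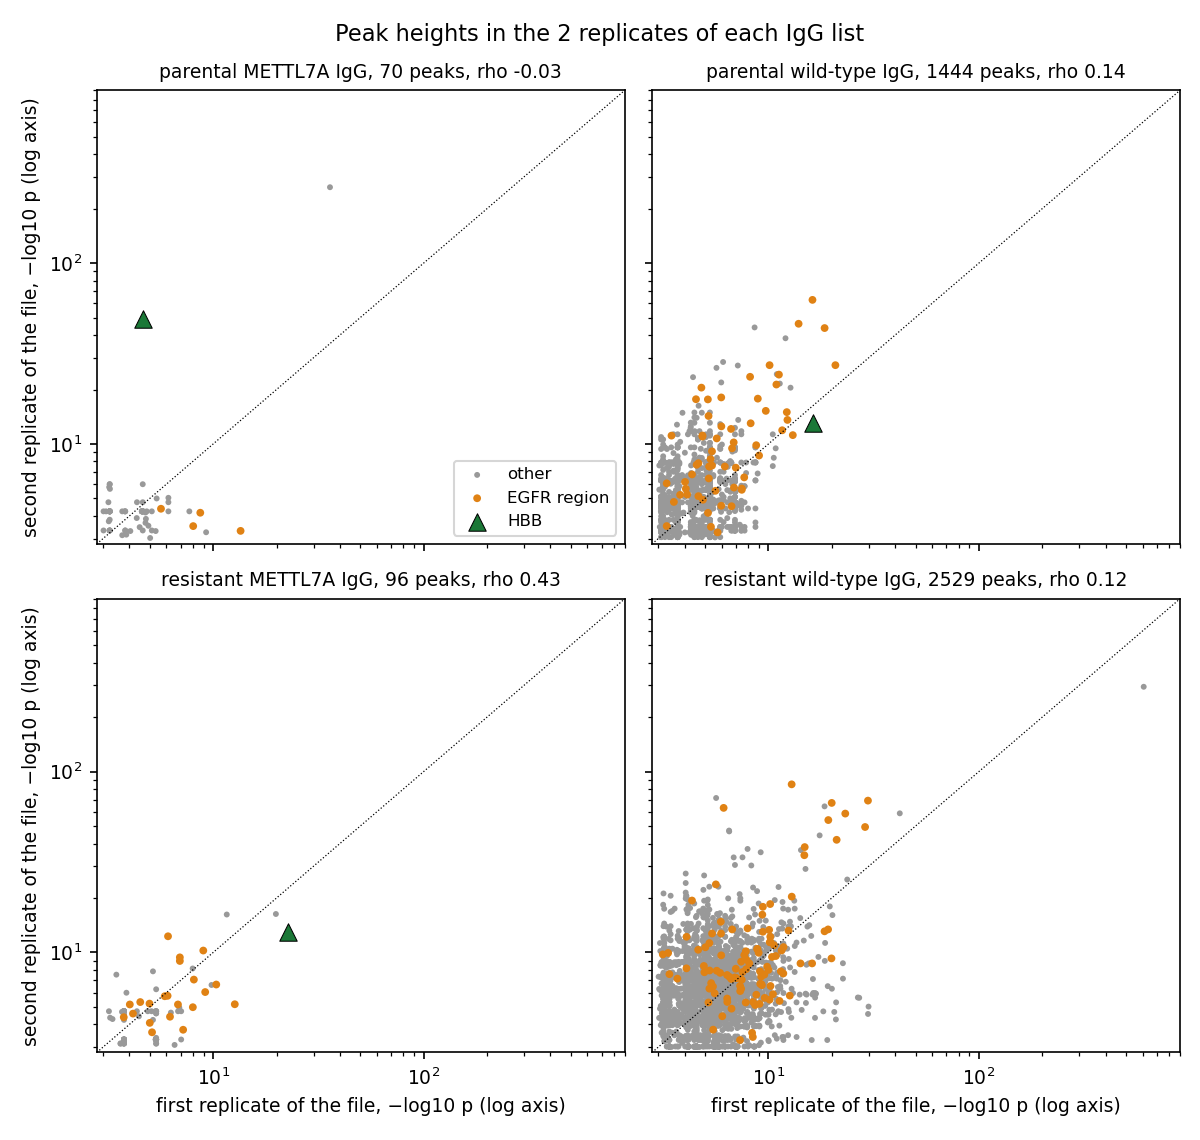
Height in the second column against the first (−log10 p, both axes log) for every peak of the 4 IgG lists, with HBB as a triangle, peaks of the EGFR region in orange and the diagonal dotted. In the parental METTL7A list HBB lies far above the diagonal, at 4.63 and 48.8.

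Positions of the 2 replicates were closer in resistant than in parental lists. The median distance between the replicates' summits was 133 bp in the parental METTL7A list, 151 bp in the parental wild-type list, 81 bp in the resistant METTL7A list and 117 bp in the resistant wild-type list. Summits within 100 bp of each other made up 37.1%, 34.4%, 54.2% and 45.2% of peaks in the same order. The part of a matched interval that both replicates covered had a median of 38.5%, 41.1%, 53.0% and 45.9%.

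METTL7A IgG peaks were narrower. The median width was 469 bp (quartiles 375 and 553) against 594.5 bp (461 and 779) in parental cells, and 407.5 bp (331 and 524) against 610 bp (449 and 835) in resistant cells. The narrowest peaks were alike, at 264, 244, 224 and 235 bp in parental METTL7A, parental wild-type, resistant METTL7A and resistant wild-type lists, while the widest were 1472, 2741, 1534 and 3924 bp. Peaks over 1 kb made up 8.57% and 4.17% of the METTL7A lists and 10.9% and 14.8% of the wild-type lists. HBB was among the 6 such peaks of the parental METTL7A list. The gap was wider in the second column, with median intervals of 253.5 bp for METTL7A beside 420.5 bp for wild-type in the parental lists, and 274.5 beside 486 bp in the resistant lists, than in the first (348.5 and 354 bp, 276 and 327 bp). Width moved with height: as many of the highest wild-type peaks as the METTL7A list holds had medians of 836 and 842 bp.

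**Figure D4:**
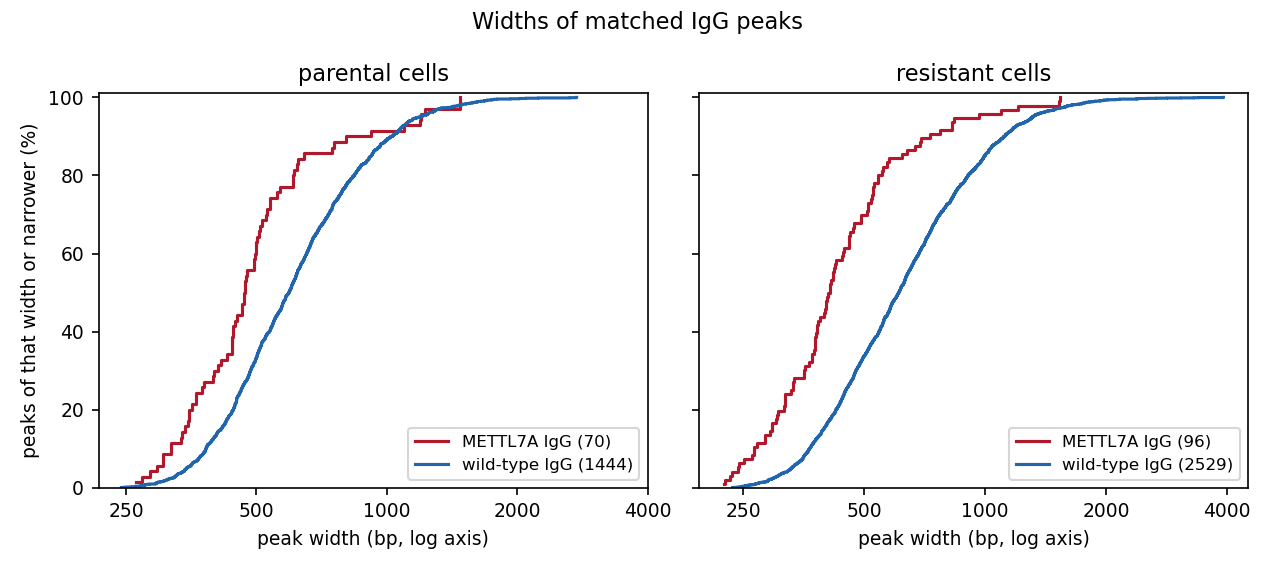
Share of peaks at or under a given width (log axis) in each IgG list, METTL7A in red and wild-type in blue, with the number of peaks in the legend. The METTL7A curve lies left of the wild-type curve over most of its range in both states, with medians of 469 and 407.5 bp against 594.5 and 610 bp.

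Few METTL7A IgG peaks had a wild-type IgG partner in the same state. With an overlap of 1 bp or more, 5 of 70 parental peaks did (7.14%, 2.36 to 15.9), which is 5 of 1444 wild-type peaks (0.346%). In resistant cells 15 of 96 did (15.6%, 9.02 to 24.5), or 15 of 2529 wild-type peaks (0.593%). The parental partners included HBB and 3 positions inside EGFR. At 7:55145670-55147140, in the first intron, the METTL7A heights of 13.5 and 3.31 faced 12.2 and 14.996. At 7:55164309-55164663 the METTL7A heights of 8.04 and 3.51 faced 3.29 and 6.06, and at 7:55211899-55212520 heights of 8.69 and 4.17 faced 5.97 and 18.1. In these 3 EGFR pairs METTL7A had the higher first and wild-type the higher second column.

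In resistant cells 12 of the 15 partners lay in the EGFR region. The first intron of EGFR held 7:55141509-55142061, where METTL7A heights of 8.97 and 10.2 faced 7.47 and 7.07, and 7:55193149-55194682, where 8.10 and 7.08 faced 10.8 and 9.56. The position in ADTRP had 9.82 and 6.61 against 12.8 and 13.9. The other 2 outside the region were 12:58019134-58019642 in the CDK4 region, with 6.90 and 4.96 against 9.21 and 11.1, and 16:88319206-88319576, with 3.75 and 3.14 against 7.13 and 7.29. The lower height was that of METTL7A in 14 of 15 resistant pairs and in 3 of 5 parental pairs. None of the 15 resistant wild-type partners was reproducible, and their ranks in the wild-type list ran from 27 to 843. Of the 96 highest resistant wild-type peaks 5 had a METTL7A partner, and of the 70 highest parental ones 3 did.

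The METTL7A MYC-tag lists held more of the METTL7A IgG peaks than the wild-type IgG lists did. The METTL7A MYC-tag list of the same state held 12.9% of the parental peaks (9 of 70, exact interval 6.05 to 23.0) and 22.9% of the resistant peaks (22 of 96, 14.95 to 32.6). For wild-type IgG peaks the wild-type MYC-tag list of the same state held 156 of 1444 (10.8%, 9.25 to 12.5) and 370 of 2529 (14.6%, 13.3 to 16.1). The wild-type MYC-tag lists held 4 parental METTL7A IgG peaks (5.71%) and 19 resistant ones (19.8%). Of these, 4 and 16 lay in the EGFR region. No overlap in any of the 7 other lists was found for 57 of the 70 parental METTL7A peaks (81.4%) and 67 of the 96 resistant ones (69.8%), beside 67.4% and 74.0% of wild-type IgG peaks. The lists searched differ in length, from 70 to 3165 peaks.

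The EGFR region, 54 to 56 Mb of chromosome 7, held 4 of 70 parental METTL7A IgG peaks (5.71%, 1.58 to 13.99) and 60 of 1444 wild-type ones (4.16%, 3.19 to 5.32). By Fisher's exact test, two-sided, the odds ratio of 1.40 had an adjusted p of 0.936. In resistant cells it held 21 of 96 METTL7A peaks (21.9%, 14.1 to 31.5) and 106 of 2529 wild-type ones (4.19%, 3.44 to 5.05), and the odds ratio was 6.40 (exact test, adjusted p = 2.44e-08). On chromosome 7 as a whole the shares were 10% and 11.4% in parental cells (odds ratio 0.867, exact test, adjusted p = 1) and 30.2% and 10.99% in resistant cells (odds ratio 3.505, exact test, adjusted p = 3.77e-06). Both resistant calls ended when the METTL7A list was set against the 96 highest wild-type peaks, of which 28.1% lay in the EGFR region and 39.6% on chromosome 7 (odds ratios 0.716 and 0.661, exact test, adjusted p = 0.708 and 0.527). The parental shares then turned to a call in the other direction, with 31.4% and 38.6% of the 70 highest wild-type peaks (odds ratios 0.132 and 0.177, exact test, adjusted p = 0.000954 for both). The same held for parental reproducible peaks, with 4 of 53 METTL7A against 16 of 31 wild-type peaks in the EGFR region (odds ratio 0.0765, exact test, adjusted p = 0.000123). List length and genotype cannot be told apart in the shares over whole lists. The highest wild-type peaks had lower heights of at least 6.29 (parental) and 9.02 (resistant), while the METTL7A lists had no height cut (medians 3.49 and 3.77). Wild-type peaks of the EGFR region were higher than those elsewhere, with medians of 5.45 against 3.70 and 6.695 against 4.43. Taking the highest thus raises that region's share on the wild-type side alone, and height and genotype cannot be told apart there.

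**Figure D5:**
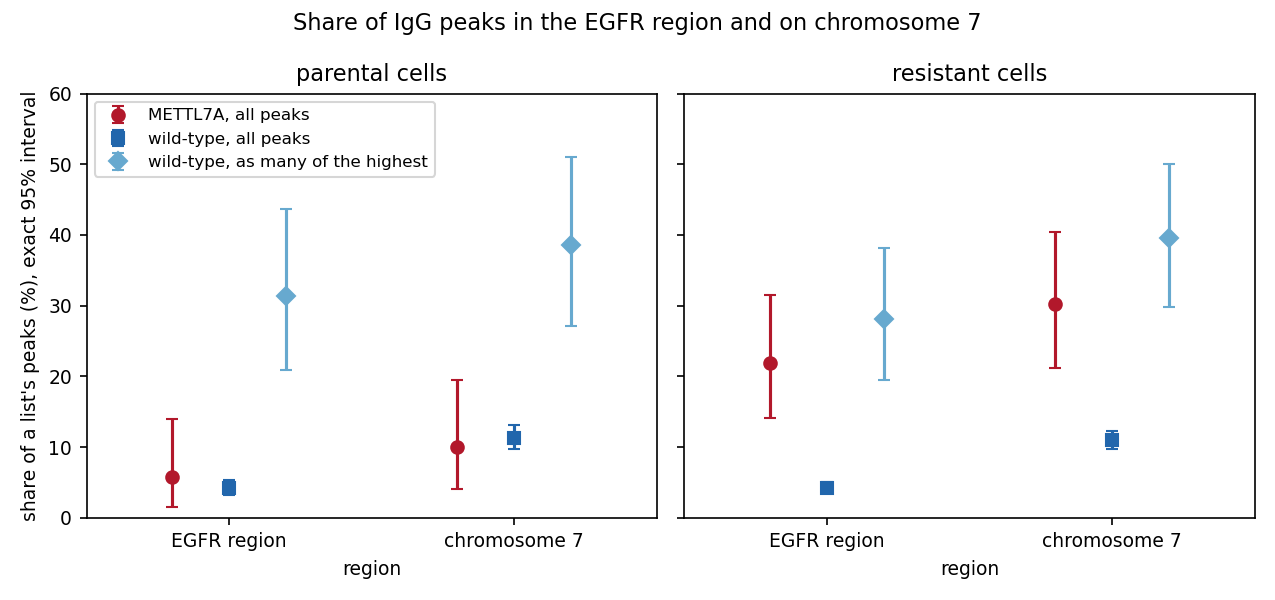
Share of IgG peaks (%) in the EGFR region and on chromosome 7 with exact 95% intervals, for all METTL7A peaks (red circles), all wild-type peaks (blue squares) and as many of the highest wild-type peaks as the METTL7A list holds (light blue diamonds). In resistant cells the METTL7A shares of 21.9% and 30.2% lie above the whole wild-type list and below the highest wild-type peaks.

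The difference between the states was tested by itself. The EGFR region odds ratio was 4.58-fold higher in resistant than in parental cells (Zelen's exact test, two-sided, adjusted p = 0.0295), and that of chromosome 7 4.04-fold higher (exact test, adjusted p = 0.0184). Against as many of the highest wild-type peaks the ratios were 5.41 for the EGFR region and 3.73 for chromosome 7, and both missed the threshold (exact test, adjusted p = 0.0750). These 2 of 7 tests between states (28.6%), and the 2 resistant calls among 14 tests of a region within a state (14.3%), were the calls made. Each family was adjusted by the Benjamini-Hochberg method at 0.05, and neighbouring peaks are not independent, so the p-values can be too small. The EGFR region is part of chromosome 7, so the calls of these 2 regions are not separate findings.

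By lower height, the EGFR region peaks were low in the parental METTL7A list and of moderate height in the resistant METTL7A list. The columns differed in the parental lists. In the first column the METTL7A median there was 8.36 and the wild-type median 5.85, and in the second 3.84 and 8.87. The 4 parental ones had lower heights of 3.31 to 4.38 and all 4 were reproducible, while the 60 wild-type ones ran from 3.24 to 20.8 with a median of 5.45. The 21 resistant ones ran from 3.62 to 8.97 with a median of 5.16, and 8 were reproducible, while the 106 wild-type ones ran from 3.15 to 29.7 with a median of 6.695. Elsewhere in the genome the METTL7A medians were 3.40 in parental and 3.69 in resistant cells. None of these METTL7A peaks met the start of EGFR, SEC61G or LANCL2.

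Other regions held too few METTL7A peaks to compare. The MET arm, 85 to 120 Mb of chromosome 7, held 1 of 70 parental METTL7A peaks and 11 of 1444 wild-type ones, and 5 of 96 and 62 of 2529 resistant ones (5.21% and 2.45%, odds ratio 2.19, exact test, adjusted p = 0.336). The CDK4 region, 57 to 59 Mb of chromosome 12, held 0 of 70 METTL7A peaks, which allows a share of up to 5.13%, beside 15 of 1444 wild-type peaks (1.04%), and 1 of 96 beside 28 of 2529 in resistant cells. The region of TMEM170B and ADTRP, 11 to 12 Mb of chromosome 6, held 0 and 2 parental and 1 and 13 resistant peaks. Within 2 Mb of a centromere gap lay 0 METTL7A and 39 wild-type parental peaks (2.701%), and 1 and 46 resistant peaks. The adjusted p of these exact tests ran from 0.336 to 1, and the 1 mitochondrial peak of the resistant METTL7A list against 0 of 2529 had an adjusted p of 0.171.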

How the data were processed

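ChIP-seq with an IgG isotype control was analysed in 8 samples of 4 groups, each group as 1 deposited peak list that combines 2 replicates. The MYC-tag lists served for recurrence. Per the submitters' processing notes, MACS2 2.2.7.1, Bowtie2 2.4.2, bedtools 2.30, SAMtools 1.16, Trimmomatic, deepTools 3.5.1, FastQC and the build GRCh37 were used, with no role or order given. Neither the control library in peak calling nor duplicate removal nor a blacklist filter is described in the sources used here. The values the authors deposited are −log10 p-values of each replicate and the −log10 of the global IDR, in a layout recognised from the values because the lists have no header.

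Widths, overlaps (1 bp or more), rank correlations, exact intervals, Fisher's and Zelen's exact tests and Benjamini-Hochberg adjustment were computed with Python 3.11.15, numpy 2.4.6, pandas 2.3.3 and scipy 1.17.1, and the overlap code and both tests were tested on simulated data. A peak was put in a region by its midpoint, and centromere gaps of 3 Mb were placed to 0.1 Mb from general knowledge of GRCh37. Genes were named only where their GRCh37 place is known with certainty, as no GRCh37 annotation was used. Named positions were the 10 highest METTL7A and 5 highest wild-type peaks of each list by lower height, shared positions, HBB, the extreme ratios of the columns and, chosen after their values were seen, the starts of EGFR and TBK1. The highest METTL7A position is counted in all totals and is not reported here. The members, regions and lists were chosen with earlier results of these data known. Alternatives were other IDR and height thresholds, each column alone, wild-type lists of equal length, merging within 1 kb, other overlap rules and leaving out chromosome 7 or the 5 highest peaks.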

Additional observations from a re-analysis of the deposited data

Results flagged for a closer look

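The shares of 2 regions differed between the cell states in a test of the difference itself. The odds ratio of the EGFR region share, METTL7A against wild-type IgG, was 4.58-fold higher in resistant than in parental cells (1.40 and 6.40, Zelen's exact test, adjusted p = 0.0295). The odds ratio of chromosome 7 was 4.04-fold higher (0.867 and 3.505, exact test, adjusted p = 0.0184). The EGFR region is part of chromosome 7 and held 21 of its 29 resistant METTL7A peaks, so the 2 calls largely share their peaks. Each state is 1 METTL7A list of 70 or 96 peaks, and with wild-type lists of equal length the ratios were 5.41 and 3.73 and both calls ended (exact test, adjusted p = 0.0750). With heights of 5 or more in both columns both calls also ended (exact test, adjusted p = 0.373), on 2 parental METTL7A peaks. At a global IDR of 0.05 or less both calls stayed, on 53 parental and 13 resistant METTL7A peaks. The ratios were then 25.6 for the EGFR region and 13.4 for chromosome 7 (exact test, adjusted p = 0.00792 and 0.0261). That threshold went with unlike heights in the 4 lists.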

How the results depend on the processing

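No paired analysis was possible because each group is 1 list in which nothing says which replicate fills which columns, and no replicate could be left out for the same reason. Of 171 alternatives, 28 turned a direction, some of them with a change of call, 33 moved a value (a count by over 1.5 times, others outside a 95% interval), and with the direction kept 6 lost a call and 3 gained one. The ratio of peak counts, METTL7A over wild-type, was 0.0485 in parental and 0.0380 in resistant cells. It turned in parental cells to 1.71 and 2.65 at a global IDR of at most 0.05 and 0.01, and moved to 0.65 and 0.429 in resistant cells. At heights of 5 or more in both columns, in the first and in the second it was 0.00794, 0.0270 and 0.0134 in parental cells, and 0.0182 (both) and 0.0131 (second) in resistant cells. Median widths of reproducible peaks were 1087 bp and 1180 bp in the parental and resistant wild-type lists and 553 bp in the resistant METTL7A list, and those of the highest wild-type peaks 836 and 842 bp.

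Spearman's rho between the columns of reproducible peaks was -0.29 (parental METTL7A), 0.33 (parental wild-type), 0.23 (resistant METTL7A) and 0.59 (resistant wild-type). It was 0.59 and 0.44 in the highest parental and resistant wild-type peaks, and 0.25 in resistant METTL7A without chromosome 7. Picking the highest or the reproducible peaks uses values of both replicates and so shapes rho. The share of parental METTL7A peaks with a wild-type partner rose to 50% of 2, 20% of 15 and 25% of 8 peaks at heights of 5 or more in both, the first and the second column. Each rule was put on both lists of a state. The resistant share was 0% of 13 and 0% of 3 METTL7A peaks at the 2 IDR thresholds, as no wild-type partner was reproducible. Reproducible METTL7A peaks such as 7:55141509-55142061 (global IDR 0.0101) did have a partner in the whole wild-type list. The resistant share was 38.9% and 39.1% with both and with the second column, and 4.48% without chromosome 7.

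Region calls went from 0 to 2 in parental cells and from 2 to 0 in resistant cells under both IDR rules and against the highest wild-type peaks. The EGFR region difference, METTL7A minus wild-type, was 1.56 percentage points in parental cells. It turned to -44.1 and -62.5 at the IDR thresholds and to -25.7 against the highest peaks. At heights of 5 in both and in the second column it was -15.1 and -8.72, on 0 of 2 and 0 of 8 METTL7A peaks. With the first column it kept its direction at 18.9 points, on 4 of 15 METTL7A and 43 of 555 wild-type peaks. In resistant cells 17.7 points became 16.5 and -71.4 at the IDR thresholds and -6.25 against the highest peaks. The value of -71.4 rests on 0 of 3 METTL7A and 5 of 7 wild-type peaks. The EGFR difference between states, 16.1 points, lost its call at heights of 5 in both (67.1 points, 2 parental METTL7A peaks) and against the highest peaks (19.5), as did that of chromosome 7 (68.9 and 19.2 points).

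Other regions turned without a call. Chromosome 7 reached 18.02 points in parental cells with the first column, and -71.4 (IDR of 0.01) and -9.38 (highest peaks) in resistant cells. The MET arm reached -0.397, -0.721 and -1.01 in parental cells with both, the first and the second column, and -3.03, -0.708, -2.80 and, against the highest peaks, -2.08 in resistant cells. The resistant CDK4 region reached 0.365 (first column) and 0.362 (merged peaks), and that of TMEM170B and ADTRP -14.3 (IDR of 0.01) and -3.13 (highest peaks). Differences between states turned at the MET arm to -1.89 (IDR of 0.05), -2.64 (both columns) and -3.51 (highest peaks), at TMEM170B and ADTRP to -1.70 (highest peaks) and at pericentromeres to -6.77 (IDR of 0.05). The cause was not tested. Fewer than 100 METTL7A peaks per list, 1 list per group and unknown read depth limit every share.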
